A study of Mus musculus with 14 samples.

Results

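The genes described here are 50 genes of the cell cycle and of DNA replication, measured in the jejunum of mice that carry either wild-type LRH-1 or LRH-1 with the K289R substitution. They were taken from a list of names that was drawn up with earlier results of these data known. Each gene was read from the probe set that carries its symbol alone and, where there were several, from the one with the highest mean over all arrays. This gave 48 genes of the 22180 named in the table, and all 48 lay above the filter on dim genes that left 18010 genes to test. Ccnb1 had no probe set with a symbol here, and Ccne2 shared its probe set with Ints8, so neither was analysed here.

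Jejunal RNA of 14 mice was hybridised, 1 array per mouse, with 7 mice labelled LRH-1 WT and 7 labelled LRH-1 K289R. All mice were 19 to 21 weeks old, were fed ad libitum and were sacrificed at 7 am. Nothing in the labels tells the sex, the litter, the genetic background or the way the allele was made, and the replicate numbers carry no statement of pairing. The labels call the arrays biological replicates, whereas the series title also uses the word hepatic. The sample labels name jejunum, and markers of enterocytes of the small intestine were among the bright probe sets on every array, with a mean log2 intensity of the 12 listed genes between 12.93 and 13.29.

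LRH-1, the product of Nr5a2, is a nuclear receptor expressed in the crypts of the small intestine, where it acts with beta-catenin on genes of the G1 phase such as Ccnd1 and Ccne1. The lysine that K289R replaces by arginine is an acceptor site for SUMO, a small protein attached to lysines. In the intestinal epithelium division is restricted to the crypts: licensing factors load the MCM helicase on origins in G1, E2F-controlled genes supply replication proteins and nucleotides in S phase, and cyclin B with Cdk1 and the mitotic kinases drive chromosome segregation. Villus cells have left the cycle. A piece of jejunum holds crypts, villi, lymphoid cells and muscle together, so in such bulk samples fewer dividing cells and less RNA per dividing cell cannot be told apart.

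Genes of S phase and genes of mitosis differ in the short elements of their promoters, and a few promoters are shown. Top2a, Ccnb2, Cdk1 and Mcm3 moved together across the K289R arrays. Ccne1 moved with the others there only through K289R replicate 5. Each window runs from 250 bases before to 50 bases after the start of the gene, 5′ to 3′ on the gene's strand, as given by RefSeq on GRCm38.p6. All 5 lie on the minus strand, at chr11:99024140-99024439 for Top2a, chr9:70421505-70421804 for Ccnb2, chr10:69352863-69353162 for Cdk1, chr1:20820263-20820562 for Mcm3 and chr7:38107441-38107740 for Ccne1. Capitals mark matches to the E2F letters TTTNNCGC, to the CHR letters TTTGAA and to CCAAT, each on either strand, so that a CCAAT on the other strand reads ATTGG.
Top2a: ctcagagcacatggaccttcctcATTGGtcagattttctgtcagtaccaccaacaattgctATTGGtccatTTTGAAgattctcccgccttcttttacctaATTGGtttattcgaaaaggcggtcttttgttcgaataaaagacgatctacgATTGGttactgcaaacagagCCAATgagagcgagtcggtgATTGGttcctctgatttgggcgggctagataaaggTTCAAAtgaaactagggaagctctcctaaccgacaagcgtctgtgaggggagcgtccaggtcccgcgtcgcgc
Ccnb2: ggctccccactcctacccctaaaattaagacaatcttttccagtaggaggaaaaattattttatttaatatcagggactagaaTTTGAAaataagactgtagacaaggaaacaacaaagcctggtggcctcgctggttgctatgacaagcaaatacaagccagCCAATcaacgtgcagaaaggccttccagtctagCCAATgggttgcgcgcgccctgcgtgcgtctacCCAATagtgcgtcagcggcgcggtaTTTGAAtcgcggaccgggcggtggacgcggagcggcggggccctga
Cdk1: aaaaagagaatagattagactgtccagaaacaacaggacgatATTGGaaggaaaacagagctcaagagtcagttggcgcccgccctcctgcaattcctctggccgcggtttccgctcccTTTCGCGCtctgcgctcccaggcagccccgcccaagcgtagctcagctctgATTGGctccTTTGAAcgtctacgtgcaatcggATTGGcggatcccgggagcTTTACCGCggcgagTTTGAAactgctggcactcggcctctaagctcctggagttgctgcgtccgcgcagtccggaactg
Mcm3: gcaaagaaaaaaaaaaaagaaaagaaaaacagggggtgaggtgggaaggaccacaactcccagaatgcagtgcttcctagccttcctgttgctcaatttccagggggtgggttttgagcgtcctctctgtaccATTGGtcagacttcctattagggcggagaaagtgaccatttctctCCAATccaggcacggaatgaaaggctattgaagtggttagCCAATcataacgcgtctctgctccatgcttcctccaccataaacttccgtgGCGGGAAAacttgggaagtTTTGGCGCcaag
Ccne1: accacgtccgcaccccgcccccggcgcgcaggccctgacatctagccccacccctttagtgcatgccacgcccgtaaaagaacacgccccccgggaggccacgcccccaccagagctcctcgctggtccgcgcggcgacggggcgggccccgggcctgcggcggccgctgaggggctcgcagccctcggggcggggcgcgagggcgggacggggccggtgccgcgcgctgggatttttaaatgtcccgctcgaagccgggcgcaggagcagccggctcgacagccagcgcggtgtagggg

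The Top2a window held 6 CCAAT matches and 2 CHR matches and no E2F match, the Ccnb2 window 3 CCAAT and 2 CHR matches, the Cdk1 window 3 CCAAT, 2 CHR and 2 E2F matches, and the Mcm3 window 3 CCAAT and 2 E2F matches. None of these letters occurred in the Ccne1 window, nor in those of Birc5, Nuf2, Dut, Tk1, E2f1 and Mybl2. The E2f1 window may lie at an alternative start of the gene. Absence of a match holds for the window read and not for the whole promoter. Across the K289R arrays the median Pearson r with the other genes was 0.54 for Ccne1, 0.86 for Birc5 and 0.77 for Nuf2. It was 0.72 for Dut, 0.65 for Tk1, 0.27 for E2f1 and -0.01 for Mybl2. Whether promoter letters go with joint movement was not tested. Of the 50 genes, 41 had 45 windows in the RefSeq table. CCAAT was present in 34 of the 45 windows (75.6%, against 37.4% of all 32851 windows), the CHR letters in 20 (44.4%, against 17.9%) and the E2F letters in 11 (24.4%, against 5.17%). The letters of the LRH-1 element, CAAGGNCA on either strand, were found in 2 windows, those of Cdc6 and Birc5 (4.44%, against 6.71%). A match is a description of letters in a short window and was not taken as a binding site, and the windows given for Prc1 overlap each other.

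No cell cycle gene differed between the genotypes at an adjusted p of 0.05. Across the 14 arrays 40 of the 48 genes had a higher mean in K289R, and the median difference was 0.07 on the log2 scale, against -0.004 over all genes tested. When K289R replicate 5 was left out, 46 of the 48 were higher and the median difference was 0.14, with the largest for Ndc80 (0.37) and Kif23 (0.34). K289R replicate 5 had the lowest value of the 14 arrays for 40 of the 48 genes, whereas K289R replicates 3, 4 and 6 lay above every WT array for 30, 38 and 37 of them. Leaving out an array that is lowest for most of these genes raises their K289R means by construction. When each of the 14 arrays was left out in turn, the median difference ran from 0.04 (without K289R replicate 4 or 6) to 0.14 (without K289R replicate 5).

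In limma's test with Benjamini-Hochberg adjustment over all genes, 0 of the 48 genes passed an adjusted p of 0.05 in the fit of 14 arrays, where 0.0444% of all genes (8 of 18010) did. Of all genes tested, 48.0% were higher in K289R in that fit. At an unadjusted p under 0.05, 1 gene was higher and 0 were lower, while 4.43% of all genes were higher and 4.05% lower at that level. Without K289R replicate 5 the count past the adjusted threshold was again 0, against 0.0777% of all genes (14), and 48.3% of all genes were higher in K289R. At an unadjusted p under 0.05 there were then 21 genes of the 48 (43.8%), all higher in K289R, and 0 lower, while 6.16% of all genes were higher and 5.30% lower at that level. Those shares of all genes, here and below, do not allow for the choice of array. The array left out was the lowest of 14 for 40 of the 48 genes, against 12.0% of all genes. The smallest adjusted p among the 48 was 0.565 with 14 arrays and 0.251 without replicate 5. For 0 of the 48 genes did the arrays of the genotypes separate without overlap, with 14 arrays (0.167% of all genes) or without replicate 5 (0.433%). The median standard error of a difference was 0.0923 with 14 arrays and 0.0735 without replicate 5.

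**Figure D1:**
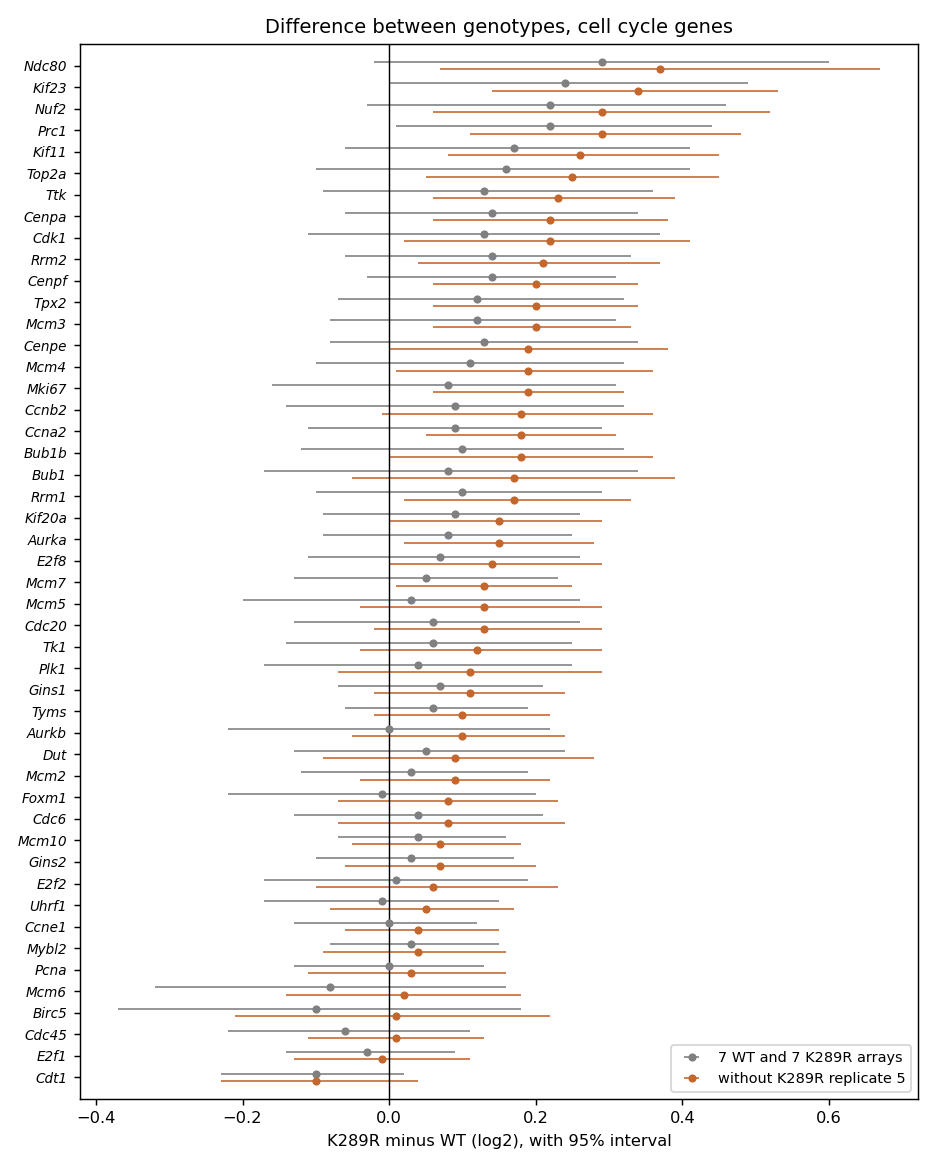
Difference between K289R and WT (log2 intensity, horizontal axis) for each of the 48 genes, with limma's 95% interval, over 14 arrays (grey) and without K289R replicate 5 (orange). The orange points lie above 0 for 46 of 48 genes, and Ndc80, Kif23, Nuf2 and Prc1 are at the top in both fits.

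The arrays themselves show how the genes were distributed over the mice. For each gene the mean of the 7 WT arrays was subtracted, and the median over the 48 genes was taken on every array. It was 0.13 on WT replicate 1, 0.08 on WT replicate 2 and between -0.06 and -0.01 on the other 5 WT arrays. On the K289R arrays it was 0.01, 0.01, 0.24, 0.25, -0.34, 0.29 and 0.04 for replicates 1 to 7 in the order of their labels. On the same WT arrays other markers also stood apart. The mean of 7 genes of regeneration and acute stress was 9.5 on WT replicate 1, 10.59 on WT replicate 2, 9.75 on WT replicate 6 and 8.46 to 9.3 on the other WT arrays, and 8.46 to 8.77 in K289R. In limma 0 of the 7 passed the adjusted threshold, with the heat shock genes Hsph1 at -1.15 ± 0.26 (adjusted p = 0.142), Hspa1b at -1.91 ± 0.552 (adjusted p = 0.341) and Hspa1a at -1.64 ± 0.538 (adjusted p = 0.408). Fos and Egr1 were at -0.32 and -0.11. The other 2 of the 7 were higher in K289R: Anxa1 at 0.24 ± 0.0778 (adjusted p = 0.408 in limma) and Clu at 0.05 ± 0.141. Fabp6, a bile acid binding protein of the distal small intestine, was at 12.52 on WT replicate 1, 9.18 on WT replicate 6, 10.71 on K289R replicate 2 and 9.91 on K289R replicate 7, and below 7 on the other arrays. The part of these in the cell cycle values of WT replicates 1 and 2 was not tested. The median difference from the WT mean over all genes tested lay between -0.023 and 0.019 on every array. Replicate 5 of K289R lay below every WT array for 43 of the 48 genes (18.4% of all genes did so), and it was the lowest of all 14 arrays for 40 (12.0% of all genes). Replicate 3 lay above every WT array for 30 genes (20.2% of all genes), replicate 4 for 38 (17.4%) and replicate 6 for 37 (16.4%).

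**Figure D2:**
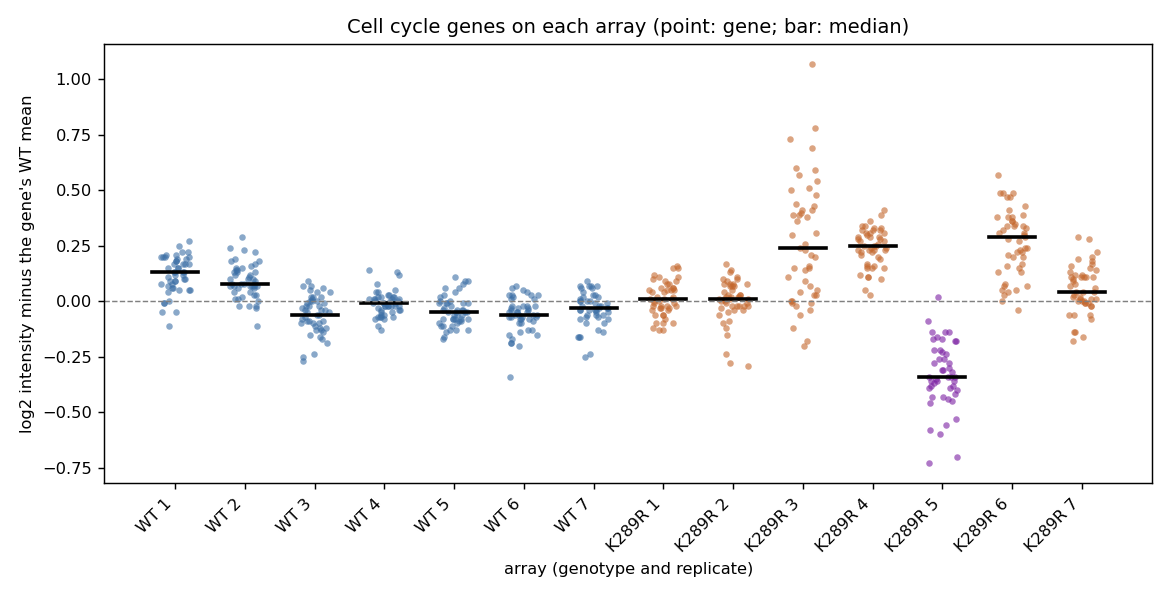
Each point is 1 of the 48 genes on 1 array, as log2 intensity minus that gene's mean over the 7 WT arrays, and bars are the medians over genes. K289R replicate 5 (purple) has a median of -0.34, and K289R replicates 3, 4 and 6 have medians of 0.24, 0.25 and 0.29.

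Among the proliferation markers, Mki67 encodes the nuclear protein Ki-67, which is present in all cycling cells. Its log2 intensity was 10.66 at the lowest, 10.72 at the median and 10.83 at the highest of the WT arrays, and 10.14, 10.89 and 11.15 in K289R. K289R replicate 5 alone lay below the WT range, and K289R replicates 3, 4, 6 and 7 lay above it. The K289R minus WT difference was 0.08 ± 0.111 (SE, adjusted p = 0.856 in limma) with all arrays and 0.19 ± 0.0609 (adjusted p = 0.297) without replicate 5. Top2a encodes topoisomerase II alpha, which untangles replicated DNA. Its values were 9.81, 9.88 and 10.08 (lowest, median, highest) in WT and 9.47, 10.07 and 10.6 in K289R, with the highest value on replicate 3 and the lowest on replicate 5. The ranges overlapped, and the difference was 0.16 ± 0.121 with all arrays and 0.25 ± 0.0942 without replicate 5.

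The licensing and helicase genes, 13 in number, had a median difference of 0.03 with 14 arrays, with 10 of them higher in K289R. Without replicate 5 the median was 0.08, 12 were higher and 3 had an unadjusted p under 0.05 (Mcm3, Mcm4 and Mcm7). At that level 6.16% of all genes were higher. Mcm3, a subunit of the replicative helicase, had log2 intensities of 8.13, 8.22 and 8.28 in WT (lowest, median, highest) and of 7.83, 8.41 and 8.6 in K289R. Its difference without replicate 5 was 0.2 ± 0.0631 (adjusted p = 0.297 in limma). Mcm5, another subunit, ranged from 9.48 to 9.66 in WT around a median of 9.57, and from 9.05 to 10.01 in K289R around the same median. The K289R arrays thus lay on both sides of the WT range, with replicate 5 lowest and replicate 6 highest. Mcm2 had medians of 9.06 in both genotypes, with a range of 8.93 to 9.13 in WT and of 8.76 to 9.37 in K289R.

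Pcna, the sliding clamp of the replicative polymerases, ranged from 11.14 to 11.36 in WT (median 11.27) and from 11.11 to 11.49 in K289R (median 11.19). Its difference was 0 ± 0.062 with a 95% interval of -0.13 to 0.13 with all arrays, and 0.03 ± 0.0623 without replicate 5. Its value on K289R replicate 5 lay just below that of the lowest WT array. Cdt1, which loads the helicase and is degraded once S phase starts, was 1 of the genes that were lower in K289R (-0.1 ± 0.0607, adjusted p = 0.64 in limma). It had 8.91, 9.03 and 9.08 in WT and 8.73, 8.85 and 9.14 in K289R, with the lowest value on K289R replicate 2 and the highest on K289R replicate 6. Leaving out replicate 5 left its difference at -0.1. Together with E2f1 it was 1 of 2 genes below 0 in that fit.

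All 5 genes of nucleotide supply were higher in K289R, with a median difference of 0.06 with 14 arrays and 0.12 without replicate 5. Rrm2 encodes the small subunit of ribonucleotide reductase, which makes deoxynucleotides in S phase. It had values of 8.38, 8.52 and 8.66 in WT and of 8.25, 8.61 and 8.96 in K289R, with replicates 3, 4 and 6 above and replicate 5 below the WT range. The difference was 0.14 ± 0.0922 with all arrays and 0.21 ± 0.076 without replicate 5 (unadjusted p = 0.0158, adjusted p = 0.333 in limma). Rrm1, its large subunit, had the other unadjusted p under 0.05 of this group (0.17 ± 0.0731 without replicate 5), while Tyms, Tk1 and Dut, which make or guard thymidine nucleotides, had differences of 0.1, 0.12 and 0.09. A second, dimmer probe set for Rrm2 had a mean log2 intensity of 5.01 and a difference of -0.01, that for Dut a mean of 5.53 and a difference of 0.04, and that for Mybl2 a mean of 7.03 and a difference of -0.12.

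The cyclins that could be read were Ccne1, Ccna2 and Ccnb2, with their partner kinase Cdk1. Ccne1, the G1/S cyclin, had values of 8.44, 8.52 and 8.66 in WT and of 8.26, 8.57 and 8.65 in K289R. Apart from replicate 5, every K289R array lay within the WT range. Its difference was 0.04 ± 0.0484 without replicate 5, with a 95% interval of -0.06 to 0.15. Ccna2, the cyclin of S phase and G2, ranged from 10.81 to 11.07 in WT (median 10.85) and from 10.43 to 11.21 in K289R (median 11.08). Its difference was 0.09 ± 0.0967 with all arrays and 0.18 ± 0.0602 without replicate 5 (unadjusted p = 0.0081, adjusted p = 0.302 in limma). Cdk1, the mitotic kinase, had a difference of 0.22 ± 0.092 and Ccnb2, a mitotic cyclin, of 0.18 ± 0.0862 without replicate 5.

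**Figure D3:**
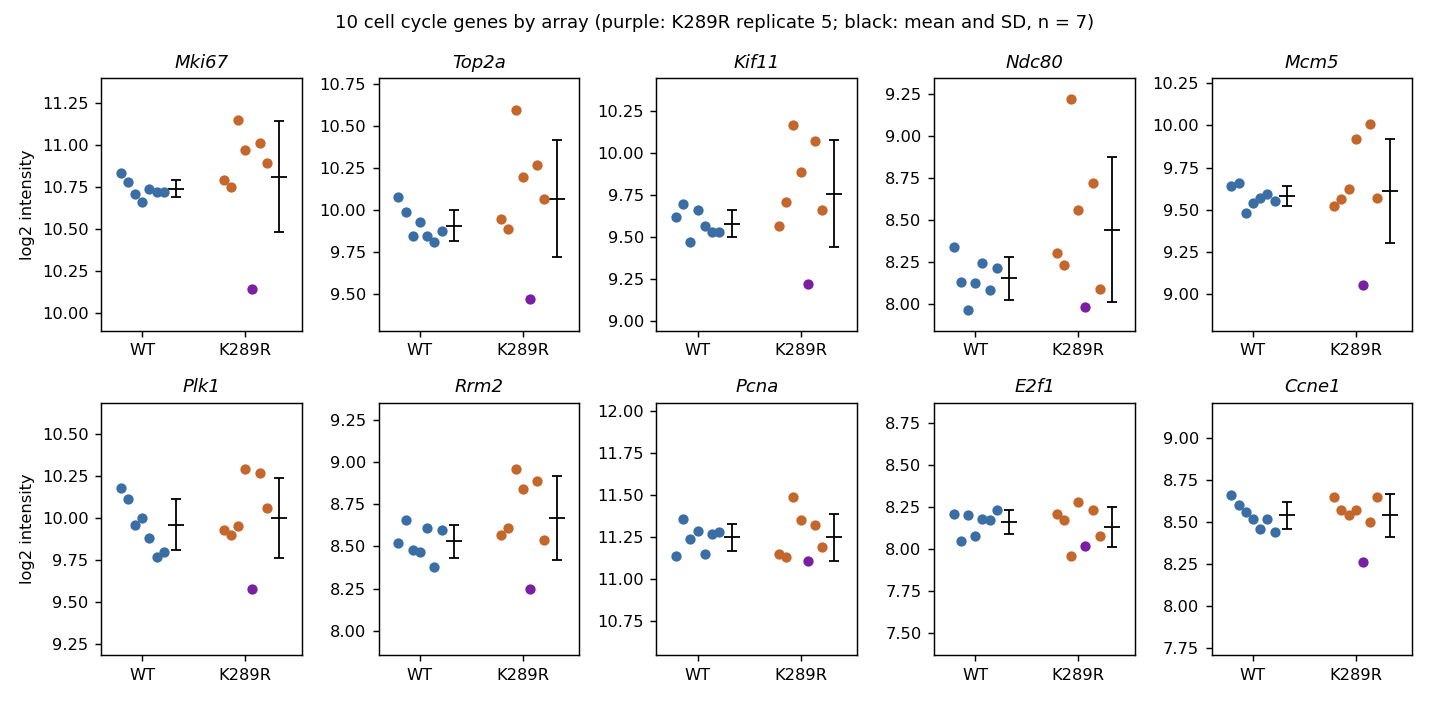
Log2 intensity (vertical axes, all spanning 1.5 units) of 10 of the genes on each of the 7 WT arrays (blue) and 7 K289R arrays (orange, with replicate 5 in purple), with mean and SD in black. Replicate 5 is the lowest K289R array in every panel except that of E2f1, and Pcna, E2f1 and Ccne1 show the smallest spread of the K289R arrays.

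The transcription factors of the cycle, with the chromatin factor Uhrf1, had the smallest median difference of the roles. Of the 6 genes 3 were higher in K289R with 14 arrays, and 5 without replicate 5. In the latter fit their median difference was 0.05 and 0 had an unadjusted p under 0.05, where 6.16% of all genes were higher. E2f1, an activator of S-phase genes, had values of 8.05, 8.18 and 8.23 in WT and of 7.96, 8.17 and 8.28 in K289R. Its lowest value was on K289R replicate 3, the array on which Mki67 and Top2a were highest, and its difference without replicate 5 was -0.01 ± 0.0569. Foxm1, which controls genes of G2 and mitosis, had a difference of 0.08 ± 0.0699 and E2f8, a repressor of E2F targets that is itself made in S phase, of 0.14 ± 0.0693 without replicate 5. Mybl2, a subunit of the complex that switches on late cell cycle genes, was the gene whose K289R arrays varied least, between 8.78 and 8.95, and it was not low on replicate 5 (8.86).

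The 8 mitotic kinases and checkpoint genes had a median difference of 0.07 with 14 arrays and of 0.14 without replicate 5. In the latter fit 8 of 8 were higher and 3 had an unadjusted p under 0.05 (Ttk, Aurka and Bub1b), where 6.16% of all genes were higher. Plk1, a kinase needed from mitotic entry to cytokinesis, had values of 9.77, 9.96 and 10.18 in WT and of 9.58, 9.95 and 10.29 in K289R. Only K289R replicates 4 and 6 lay above and replicate 5 below the WT range, and the difference without replicate 5 was 0.11 ± 0.0839. Ttk, the kinase that starts the spindle checkpoint, had the largest difference of the group (0.23 ± 0.0773, unadjusted p = 0.00932, adjusted p = 0.31 in limma). Birc5, the survivin subunit of the chromosomal passenger complex, was at 0.01 ± 0.102 in the same fit and at -0.1 ± 0.131 with all arrays.

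Genes of the centromere and kinetochore (5) and of spindle motors and the midzone (5) had the largest group medians with 14 arrays. All 10 were higher in K289R, with medians of 0.14 and 0.17. Without replicate 5 the medians were 0.22 and 0.26, with 5 of 5 and 4 of 5 at an unadjusted p under 0.05. At that level 6.16% of all genes were higher and 5.30% lower. The genes share the same mice, so these counts are not independent of each other. Ndc80, the microtubule-binding subunit of the outer kinetochore, had values of 7.96, 8.13 and 8.34 in WT and of 7.98, 8.3 and 9.22 in K289R. Replicates 3, 4 and 6 lay above the WT range, replicate 3 by the most, and replicate 5 was not below it. The difference was 0.29 ± 0.146 with all arrays (adjusted p = 0.604 in limma) and 0.37 ± 0.141 without replicate 5 (adjusted p = 0.348), a ratio of 1.29. Nuf2, its partner in the same complex, had 8.09, 8.21 and 8.41 in WT and 8.03, 8.42 and 9.03 in K289R, with a difference of 0.29 ± 0.107 without replicate 5. Cenpf, a large kinetochore protein made in G2, had 8.11, 8.2 and 8.27 in WT and 7.96, 8.36 and 8.57 in K289R, with a difference of 0.2 ± 0.0663.

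Prc1, which bundles the antiparallel microtubules of the midzone, was the 1 gene with an unadjusted p under 0.05 with all 14 arrays. Its values were 8.65, 8.88 and 9.19 in WT and 8.68, 9.18 and 9.39 in K289R, and the ranges overlapped for most of their length. The difference was 0.22 ± 0.102 (unadjusted p = 0.0441, adjusted p = 0.565 in limma) and became 0.29 ± 0.0858 without replicate 5 (adjusted p = 0.278). Kif23, the midzone motor of cytokinesis, had 8.77, 9.04 and 9.14 in WT and 8.7, 9.25 and 9.74 in K289R. More K289R arrays stood above the WT range than for Ndc80: replicates 1, 3, 4, 6 and 7 did so. The difference was 0.24 ± 0.117 with all arrays and 0.34 ± 0.0928 without replicate 5 (unadjusted p = 0.00234, adjusted p = 0.251 in limma), a ratio of 1.26. Kif11, the motor that separates the spindle poles, had 9.47, 9.57 and 9.7 in WT and 9.22, 9.71 and 10.17 in K289R, with replicates 2, 3, 4 and 6 above and replicate 5 below the WT range.

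The K289R arrays above the WT range did not have the same profile over the roles. On replicate 3 the median over the kinetochore genes was 0.6 above the WT mean, over the proliferation markers 0.55 and over the spindle and midzone genes 0.4, while over the licensing genes it was 0.15, over the mitotic kinases 0.12 and over the transcription factors -0.02. On replicate 4 the role medians lay closer together, from 0.18 for the transcription factors to 0.29 for the cyclins with Cdk1. On replicate 6 they ran from 0.1 for the transcription factors to 0.48 for the spindle and midzone genes. On replicate 5 all 8 role medians were below 0, from -0.52 for the proliferation markers to -0.23 for the kinetochore genes. These profiles are each of 1 mouse, and no test between arrays was made.

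**Figure D4:**
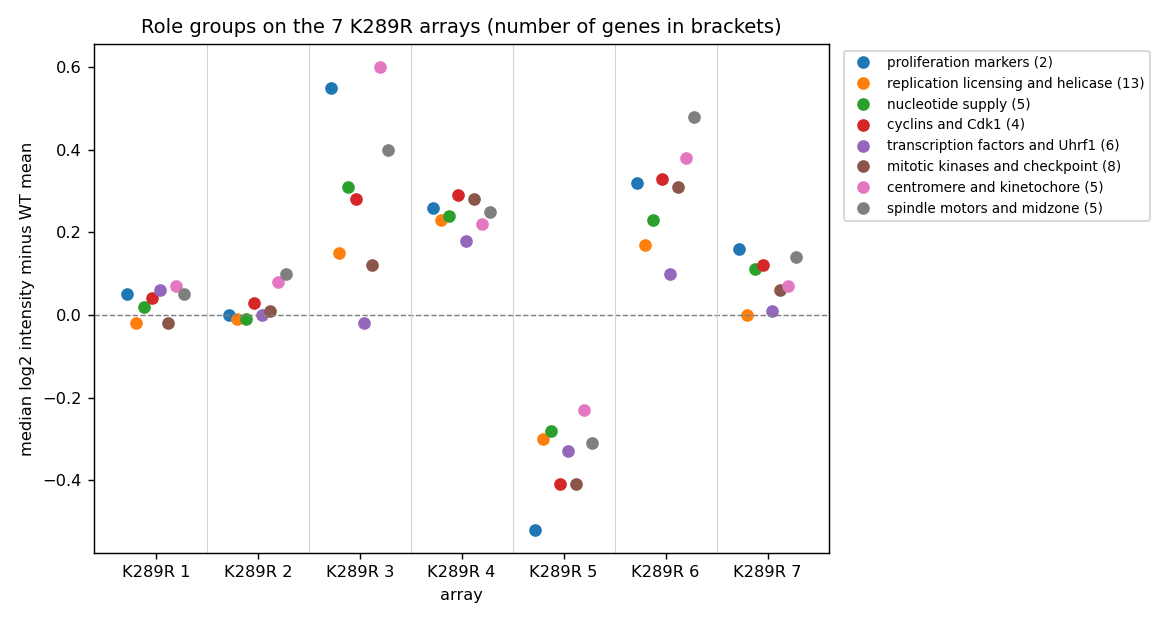
Median over the genes of each role group (log2 intensity minus the WT mean, vertical axis) on the 7 K289R arrays. Replicate 3 spreads the roles from -0.02 (transcription factors) to 0.6 (kinetochore), replicate 4 only from 0.18 to 0.29, and replicate 5 has all 8 below 0.

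The spread between mice was larger in K289R. The median SD over the 48 genes was 0.0971 in WT and 0.245 in K289R, and 0.159 in K289R without replicate 5, while over all genes tested the medians were 0.111, 0.133 and 0.126. The SD was larger in K289R for 45 of the 48 genes, against 63.1% of all genes, and without replicate 5 for 42, against 58.5%. The median ratio of the SDs was 2.53, or 1.74 without replicate 5, against 1.17 and 1.11 over all genes. Mki67 had an SD ratio of 6.2, Mcm5 of 5.09 and Mcm3 of 4.65, whereas Prc1 had 1.3. Whether the variances differ between the genotypes was not tested gene by gene, and the 48 genes share the same 14 mice.

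Within each genotype the genes moved together across mice. Over the 1128 pairs of genes the median Pearson r was 0.53 across the 7 WT arrays and 0.83 across the 7 K289R arrays, and 0.63 across K289R without replicate 5, with a median near 0 over all pairs of genes tested in each case. An r above 0.7 was found for 29.5% of the pairs in WT, 69.5% in K289R and 43.1% in K289R without replicate 5, against 5.61%, 6.00% and 8.34% of all pairs of genes. In WT the median r was 0.43 without replicate 1 and between 0.53 and 0.6 without any other array. Without WT replicates 1 and 2 together, r of Mki67 with 13 of the genes ran from -0.74 (Top2a) to 0.84 (E2f1). Mki67 itself ran only from 10.66 to 10.74 on the remaining WT arrays, so r across them can neither show nor exclude joint movement. These correlations describe 7 or 6 arrays that share their RNA, labelling and scaling across genes, and the difference between the genotypes was not tested.

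**Figure D5:**
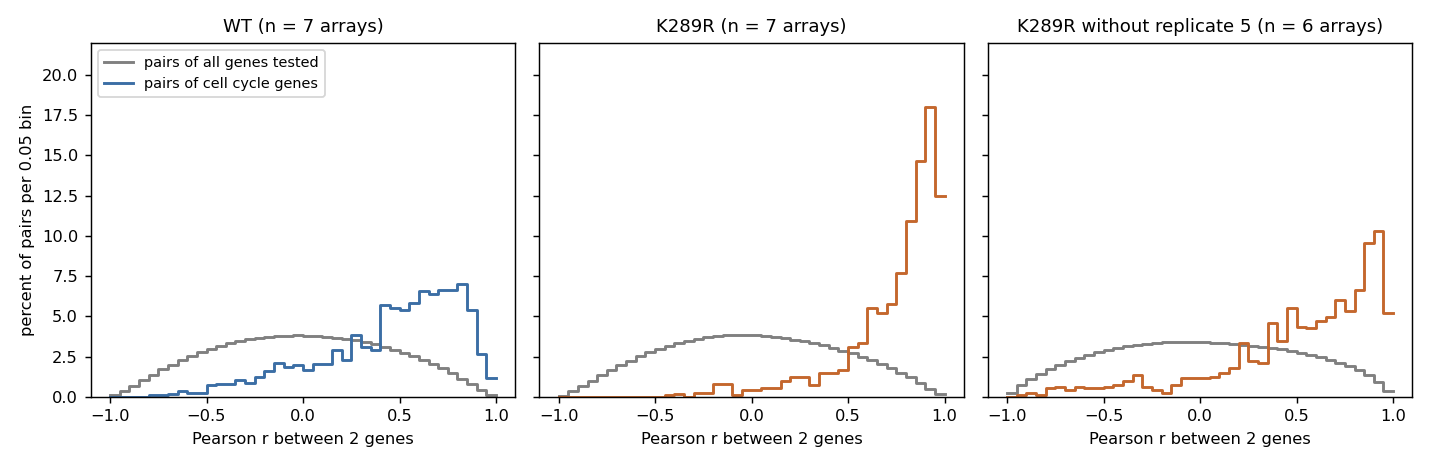
Distribution of Pearson r over pairs of the 48 genes (coloured) and over pairs of all genes tested (grey), as percent of pairs per bin of 0.05, across the 7 WT arrays, the 7 K289R arrays and 6 K289R arrays without replicate 5. The coloured medians are 0.53, 0.83 and 0.63, and the grey distributions are centred near 0.

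The genes closest to the rest in WT were Tk1 (median r with the others 0.78), Mcm4 (0.75), Top2a (0.74), Gins2 (0.72) and Cdc20 (0.71). Those farthest were E2f1 (-0.29), Pcna (-0.05), Cdc45 (0.03), Mcm2 (0.06) and Cenpe (0.09). In K289R the closest were Mcm7 (0.92), Tpx2 (0.91), Prc1, Aurka and Cenpa (each 0.9), and the farthest were Mybl2 (-0.01), E2f1 (0.27), Cdt1 (0.43), Ccne1 (0.54) and Tyms (0.62). E2f1 was thus among the 5 farthest in both genotypes. Ccne1 moved with the others in K289R through replicate 5, and without it its median r was -0.65, the lowest of the 48. The spindle and midzone genes had a median r of 0.8 with each other in WT and 0.94 in K289R. Without replicate 5 their median r with the kinetochore genes was 0.89, but only 0.19 with the transcription factors.

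Mki67 was set against 13 of these genes and 6 genes of other cells in each genotype, 38 relations in all, with exact permutation tests over the 7 arrays (2-sided, smallest possible p = 0.000198, Benjamini-Hochberg over the 38). In K289R, 5 of the 13 had an adjusted p under 0.05 by Pearson's r. Top2a had r = 0.95 and rho = 1 (exact permutation p = 0.000198 and 0.000397, adjusted p = 0.00752 and 0.0151), and r = 1 without replicates 5 and 3, the 2 arrays farthest from the Mki67 median. Cdk1 had r = 0.93 and rho = 0.96 (exact p = 0.000397 and 0.00278, adjusted p = 0.00754 and 0.0264) and r = 0.93 without these arrays. Kif11 (r = 0.92, rho = 0.89), Rrm2 (r = 0.92, rho = 0.86) and Ccna2 (r = 0.96, rho = 0.86) passed by r only, with adjusted exact permutation p of 0.0126, 0.0207 and 0.0483 by r and of 0.0935, 0.113 and 0.113 by rho, and had r of 0.84, 0.81 and 0.98 without the 2 arrays. Pcna passed by rho only (r = 0.76, rho = 0.96, adjusted exact permutation p = 0.108 and 0.0264). Without replicate 5 alone, r was 0.99 for Top2a, 0.97 for Cdk1 and Pcna, 0.91 for Kif11, 0.88 for Rrm2 and 0.73 for Ccna2. Among the genes that did not pass, it was then 0.47 for Mcm5, 0.4 for Mcm2 and Plk1, and 0.38 for Foxm1. For Tk1, E2f1 and Ccne1 it was -0.09, -0.44 and -0.61.

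E2f1 had r = 0.22 and rho = 0.11 with Mki67 in K289R (exact permutation p = 0.687 and 0.84, adjusted p = 0.812 and 0.939), and Ccne1 r = 0.73 and rho = 0.04 (exact permutation p = 0.129 and 0.963, adjusted p = 0.237 and 0.989), which turned to r = -0.56 without replicates 5 and 3. In WT 0 of the 13 passed the adjusted threshold by r or rho, and 4 (Ccna2, Mcm5, Tk1 and Foxm1) had an unadjusted exact permutation p under 0.05 by r. Foxm1 had the highest of these (r = 0.81, rho = 0.82, exact permutation p = 0.0284 and 0.0341, adjusted p = 0.108 and 0.13). The r of several genes depended on WT replicates 1 and 2, the WT arrays with the highest Mki67. Without them Foxm1 had r = 0.24, Top2a went from 0.72 to -0.74 and Tk1 from 0.79 to -0.58. Mki67 varied little over the WT arrays left, so these values do not decide whether the relations held there. Outside the cell cycle genes, Alpi, the alkaline phosphatase of mature enterocytes, opposed Mki67 in K289R (r = -0.76, rho = -0.96, exact permutation p = 0.0288 and 0.00278, adjusted p = 0.108 and 0.0264; r = -0.76 without replicates 5 and 3). Other enterocyte genes followed Alpi in part. Among the K289R arrays Alpi was lowest on replicate 3 (13.1), where Mki67 was highest, and highest on replicate 5 (13.39). Apoa1 had the same 2 extremes (13.31 and 13.45). Apoa4 (14.05), Lct (13.39), Vil1 (13.03) and Slc5a1 (12.81) were also highest on replicate 5. In contrast, Mttp (13.14), Fabp1 (12.94) and Slc2a2 (12.08) had their highest values of the K289R arrays on replicate 3. The stem cell gene Olfm4 had r = 0.85 and rho = 0.14, and r = 0.22 without the same 2 arrays.

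Other genes of the pathway, 90 of 96 listed that could be tested, gave 0 calls at an adjusted p of 0.05 in either fit. With 14 arrays 66 of the 90 were higher in K289R, with a median difference of 0.06, and 4 had an unadjusted p under 0.05, 3 higher and 1 lower (4.43% of all genes were higher and 4.05% lower at that level). Leaving out K289R replicate 5 moved the counts to 77 higher, with a median of 0.11, and to 27 at an unadjusted p under 0.05, all higher (6.16% of all genes were). Of the 33 other mitotic genes 31 were higher without replicate 5 and 17 had such a p, among them Kif15, a spindle motor (0.31 ± 0.0902, adjusted p = 0.283 in limma), Mad2l1, a spindle checkpoint protein (0.3 ± 0.0905, adjusted p = 0.293), and Melk (0.25 ± 0.0798, adjusted p = 0.297). Of the 31 other replication factors 28 were higher and 8 had such a p, with Pole, the catalytic subunit of DNA polymerase epsilon, at 0.19 ± 0.056 and Chaf1b, a histone chaperone of replication, at 0.21 ± 0.0648. The 9 G1 cyclins and kinases had a median of 0.04 and 1 such p, for Ccnd2 (0.26 ± 0.0851, adjusted p = 0.3), while Ccnd1 was at 0.21 ± 0.119 (adjusted p = 0.505) without replicate 5 and at 0.09 ± 0.15 with it. The 17 cell cycle inhibitors had 9 genes higher and a median of 0.03 with all arrays, and 11 and 0.04 without replicate 5. Among them Rbl1, which encodes the pocket protein p107, was at 0.22 ± 0.0675 with all arrays (unadjusted p = 0.00523, adjusted p = 0.392) and at 0.23 ± 0.0703 without replicate 5. E2f4, a partner of the pocket proteins, was lower at -0.11 ± 0.0506 with all arrays (unadjusted p = 0.0386, adjusted p = 0.547 in limma) and at -0.11 ± 0.053 without replicate 5. Cdkn1a, which encodes p21, was at 0.07 ± 0.0728 and 0.04 ± 0.0723.

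Markers of the other cells of the tissue were read on the same arrays. The mean log2 intensity of 12 smooth muscle genes was highest on K289R replicate 5 (10.87), with 10.37 on K289R replicate 3, 10.76 on replicate 4, 10.61 on replicate 6 and 10.41 to 10.59 on the WT arrays. Of these genes 10 of 12 were higher in K289R with 14 arrays, and 0 passed the adjusted threshold. An unadjusted p under 0.05 was found for 7, all higher, where 4.43% of all genes were higher. The 7 included Synm (0.3 ± 0.0657, adjusted p = 0.129 in limma) and Acta2, which encodes smooth muscle actin (0.19 ± 0.0476, adjusted p = 0.253). The mean of 12 crypt stem cell genes was lowest on K289R replicate 5 (9.13), with 9.43 on replicate 3, 9.63 on replicate 4, 9.57 on replicate 6 and 9.34 to 9.61 in WT. Of these genes 7 of 12 were higher in K289R with 14 arrays, with a median difference of 0.01, and 9 of 12 without replicate 5, with a median of 0.06. Aqp4 had the smallest p of the list (0.44 ± 0.0957 without replicate 5, adjusted p = 0.115 in limma), whereas the stem cell genes Smoc2 and Sox9 were at -0.11 and Axin2 at -0.04 with 14 arrays. Means of the 12 B cell genes were 8.47 on K289R replicate 6, 8.09 on replicate 3, 7.49 on replicate 4, 7.97 on replicate 5 and 7.48 to 8.2 in WT, and those of the 8 T cell genes 9.07, 9.18, 8.57, 9.13 and 7.89 to 9.18. Enterocyte markers had a mean of 13.24 on replicate 5, within the WT range of 12.93 to 13.29. The part of these cells in the cell cycle values was not tested beyond covariates: when the mean of the smooth muscle genes was added as covariate, 20 of the 48 genes had an unadjusted p under 0.05 with all 14 arrays. The share of all genes at that level, in either direction, moved as well, from 8.48% without a covariate to 13.5%. With the mean of the crypt stem cell genes there were 2 of the 48 (9.92% of all genes), and with that of the B cell genes 1 (7.43%). In limma 0 of the 48 passed the adjusted threshold with each covariate.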

How the data were processed

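The deposited table holds 1 intensity per probe set and array on a linear scale, made with Affymetrix Expression Console per the submitters' processing notes, whose version, background correction and normalization were not stated there. The authors' intensities of 41345 probe sets ran from 7.40 to 20050.3, with array medians of 168 to 174, so they were taken as normalized. Precision is set by how many arrays there are. Per the labels' protocols, 100 ng of Trizol-extracted RNA was amplified and 5500 ng of cDNA labelled with biotin.

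The deposited intensities were converted to log2 values here. Names came from the annotation of the platform: 23521 probe sets had 1 symbol, 1814 several (left out) and 16010 none here. A gene needed a mean at or above log2 6.25 (intensity 75.9), the level that cuts off the dimmest 25% of probe sets. Differences (K289R minus WT) went through limma (version 3.58.1, R version 4.3.3, functions lmFit and eBayes, 2-sided, no covariate, Benjamini-Hochberg over 18010 genes, threshold 0.05), a procedure that was tested on simulated data with known changes. Standard errors are limma's moderated ones. Correlations were tested by exact permutation over all orders of 7 arrays in Python 3.11.15. Promoter windows and their letters came from RefSeq on GRCm38.p6.

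The 50 genes, their roles, the other lists and the comparison without K289R replicate 5 were chosen with earlier results of these data known. Genes given with values on the arrays are a preset group (Mki67, Top2a, Ccne1, Mcm2, Mcm5, Pcna, Rrm2, E2f1, Plk1 and Kif11), the 6 with the smallest p in each fit and the 5 highest and 5 lowest by median correlation in each genotype. Of the other lists at most 3 genes by p, with Ccnd1 and Cdkn1a, are named. Genes named to complete a count or a role (Rrm1, Cdk1, Ccnb2, Tyms, Tk1, Dut, Foxm1, E2f8, Ttk, Birc5, Smoc2, Sox9, Axin2, Mttp, Fabp1, Fabp6 and others) were chosen after their values were seen. No duplicate arrays were found: the root mean square difference between arrays was at least 0.16 on the log2 scale. Marker lists of Paneth, goblet, distal small intestinal, erythroid and myeloid, and stressed cells were also read. Their means on K289R replicate 5 were 12.85, 12.65, 7.87, 7.32 and 8.77, against WT ranges of 12.77 to 13.23, 12.56 to 12.72, 7.43 to 10.73, 7.19 to 7.41 and 8.46 to 10.59.

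Alternatives were quantile normalization, shifting arrays to 1 median, other filters on dim genes, the mean over probe sets, array weights, eBayes with its trend and robust options, the replicate number as a block, 3 covariates and leaving out each array. Leaving out the 4 arrays with Fabp6, a gene of the distal small intestine, above log2 8 was added after seeing the data.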

Additional observations from a re-analysis of the deposited data

Results flagged for a closer look

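In K289R, replicate 5 stood apart from the other 6 arrays as the lowest value for 5 genes. Its gap to the next array, as a share of the whole range of the 7 arrays, was 0.611 for Mki67 (10.14), 0.623 for Mcm7 (9), 0.611 for Ccne1 (8.26), 0.654 for Ccna2 (10.43) and 0.599 for Aurkb (9.06), above Dixon's critical value for 7 samples at the 95% level. In WT, replicate 1 stood apart as the highest for Uhrf1, with a share of 0.754 (8.88). These 6 came from 96 groups of 7 arrays, of which chance flags about 1 in 20, and the 5 genes of replicate 5 share 1 array.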

How the results depend on the processing

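No cell cycle gene passed an adjusted p of 0.05 with limma under any alternative run, with the smallest adjusted p at 0.0807, and the median difference stayed above 0 in all of them (0.04 to 0.18 with 14 arrays, 0.1 to 0.2 without K289R replicate 5). The count of genes with an unadjusted p under 0.05 with 14 arrays, 1 as reported, was 3 after quantile normalization, 5 with array weights, 20 with the smooth muscle covariate, 2 with the crypt stem cell covariate and 0 with the replicate block, and 0 to 21 when 1 array was left out. Of all genes tested 8.48% had such a p, in either direction, as reported, and 9.45%, 12.2%, 13.5%, 9.92% and 8.13% under these 5 settings. The 5 of 48 with array weights lies below that share of all genes in either direction. All 5 were higher in K289R, and the share of all genes in that direction alone is not given for these settings. The 21 was reached without K289R replicate 5, and no other array left out gave more than 3. Without K289R replicate 5 the count, 21 as reported, against 11.5% of all genes, was 13 with the replicate block (11.4%), 17 to 26 under the other settings and 14 to 25 when a further array was left out. Arrays of the same number did not deviate together (r from -0.15 to 0.17, own number best for 0 of 7). Equal numbers could still mark paired mice whose values do not deviate together, so pairing stayed unknown. The median pairwise r in K289R was 0.63 without replicate 5 and 0.83 to 0.9 without any other array. Of 918 values for 18 single genes 30 turned their sign, in 6 genes. With 14 arrays Ccne1 was at 0.048 with array weights, 0.053 with the smooth muscle and 0.0016 with the B cell covariate, Pcna at -0.015 with array weights and -0.0013 with the crypt stem cell covariate, and E2f1 at 0.0035 with array weights. Without K289R replicate 5, Pcna was at -0.0003 and E2f1 at 0.018 with array weights, and E2f1 at 0.021 without the 4 arrays with Fabp6 above log2 8. When 1 of the 14 arrays was left out, the lowest and highest differences were -0.021 and 0.044 for Ccne1, -0.015 and 0.087 for Mcm2, -0.036 and 0.13 for Mcm5, -0.038 and 0.025 for Pcna, -0.051 and 0.0036 for E2f1 and -0.0095 and 0.11 for Plk1. When 1 of the 13 was left out, they were -0.018 and 0.053 for Pcna and -0.033 and 0.032 for E2f1. The smallest adjusted p among the values that turned was 0.723 (limma), and the cause was not tested.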
